A study of Mus musculus with 3 samples.

Results

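The 10 genes described here are members of the interleukin-1 (IL-1) family and its receptors, with the sensor that governs release of the cytokines: Il1a, Il1b, Il1f9, Il18, Il1rn, Il1r1, Il1rap, Il1r2, Il1rl1 and Nlrp3. They were taken by symbol from the 31253 genes of the count files, and each symbol had 1 row. The cells came from the jaw of wild-type C57BL/6 male mice 10 weeks old. Of 24 mice, 8 were controls (Ctrl), 8 were killed 1 day (1d) and 8 were killed 7 days (7d) after 10 Gy given to the head and neck. Tissue was digested with collagenase, and the cells were frozen and thawed before loading. The 8 mice of a group were combined before the cells were counted, so each group was 1 library, and what varies between mice cannot be seen. No test between groups was possible, and every interval below is a 95% interval that covers counting error only.

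IL-1α and IL-1β, the products of Il1a and Il1b, are alarm cytokines of inflammation. They bind IL1R1, which signals only together with the accessory chain IL1RAP and switches on NF-kB target genes. The antagonist IL1RN occupies IL1R1 without signalling, and IL1R2 is a decoy that binds IL-1 but lacks the signalling part. IL-1β and IL-18 are made as precursors that caspase 1 cuts inside the NLRP3 inflammasome. Il1f9 encodes IL-36γ, a cytokine of barrier tissue and neutrophils. Il1rl1 encodes ST2, the receptor of the alarmin IL-33, known on basophils, mast cells, type 2 innate lymphoid cells and regulatory T cells. In bone, IL-1 is known to promote osteoclast formation.

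After filtering, 8605 (Ctrl), 4917 (1d) and 6159 (7d) cells remained, with a median of 2416, 5038 and 3826 unique molecular identifiers (UMIs) per cell. The libraries shared 12 to 24 cell barcodes. Levels are UMIs of a gene per 1000000 UMIs of the cells summed (counts per 1000000, CPM), and since reads mark the 3′ end, levels of different genes are not compared. Cell classes were rebuilt from markers, without the 10 genes among the clustering genes, and each name stands for "-like" cells. Clusters are numbered separately at the main and the finer resolution, and numbers of the latter are written "finer cluster". Neutrophils were 2987 (34.7%), 1248 (25.4%) and 362 (5.88%) cells. Neutrophil precursors were 76, 593 and 526 cells, monocytes and macrophages 505, 389 and 334, conventional dendritic cells 113, 87 and 174, and basophils 58, 52 and 117. Mesenchymal cells, among them periodontal ligament, fibroblast and osteoblast clusters, were 383, 107 and 63. Bone genes such as Bglap and Ibsp led the mesenchymal class, as the jaw label would have it, but most cells were of blood lineages.

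Most of the genes lie in groups on chromosomes 1 and 2 (mm10, GENCODE M21). Il1r2 (40074079 to 40125231), Il1r1 (40225080 to 40317257) and Il1rl1 (40429570 to 40465415) stand in a row on the plus strand of chromosome 1. On chromosome 2, Il1f9 (24186476 to 24193568) and Il1rn (24336853 to 24351494) lie on the plus strand. Il1a (129299610 to 129309972) and Il1b (129364570 to 129371139) lie together on the minus strand. Il18 is on chromosome 9 (50554827 to 50581840), Nlrp3 on chromosome 11 (59541568 to 59566956) and Il1rap on chromosome 16 (26581704 to 26730117).

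The 250 bases before the start of 3 genes are shown because their transcripts went with different cells: Il1b and Il1rn with myeloid cells, and Il1rl1 with basophils, lymphoid, erythroid and stromal cells. Il1rn has 3 RefSeq starts, of which the first is shown, and Il1rl1 has 2. The windows are from RefSeq (GRCm38.p6), 5′ to 3′ on the gene's strand. Capitals mark matches on either strand to the motifs of NF-kB (GGGANNNNCC), AP-1 (TGANTCA), C/EBP (TTGCNNAA), and PU.1 (GAGGAAG). They also mark the letters AGATAA, bound by factors of the GATA family, and the letters TATAAA of the box named for them. No 2 of the matches marked overlap.
Il1b, chr2:129371140-129371389, minus strand: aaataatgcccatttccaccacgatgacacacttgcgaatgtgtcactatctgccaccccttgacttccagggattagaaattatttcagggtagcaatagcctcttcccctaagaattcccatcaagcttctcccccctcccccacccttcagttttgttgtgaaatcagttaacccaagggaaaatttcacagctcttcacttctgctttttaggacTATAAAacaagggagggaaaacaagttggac
Il1rn first start, chr2:24336610-24336859, plus strand: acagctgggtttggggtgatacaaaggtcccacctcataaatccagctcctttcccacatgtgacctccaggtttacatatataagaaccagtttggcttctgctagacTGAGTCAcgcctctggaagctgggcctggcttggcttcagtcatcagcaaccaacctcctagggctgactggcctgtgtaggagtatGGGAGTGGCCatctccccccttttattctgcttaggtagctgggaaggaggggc
Il1rl1 distal start, chr1:40429320-40429569, plus strand: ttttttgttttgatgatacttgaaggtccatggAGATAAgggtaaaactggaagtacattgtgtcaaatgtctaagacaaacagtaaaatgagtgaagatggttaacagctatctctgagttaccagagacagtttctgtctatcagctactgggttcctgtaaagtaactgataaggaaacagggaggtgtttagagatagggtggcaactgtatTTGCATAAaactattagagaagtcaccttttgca
Il1rl1 proximal start, chr1:40439379-40439628, plus strand: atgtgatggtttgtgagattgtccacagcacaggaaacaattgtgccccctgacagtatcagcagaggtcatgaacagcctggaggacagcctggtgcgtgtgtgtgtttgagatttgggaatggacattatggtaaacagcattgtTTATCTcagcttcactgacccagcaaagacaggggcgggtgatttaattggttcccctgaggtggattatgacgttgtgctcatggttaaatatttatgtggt

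The Il1b window held the TATAAA letters from 31 to 26 bases before the start and none of the other motifs. The first Il1rn window held an AP-1 match (TGAGTCA) 141 bases and an NF-kB match (GGGAGTGGCC) 54 bases before the start, and the windows of its other 2 starts held none of the motifs. The distal Il1rl1 window held a GATA match 217 bases and a C/EBP match (TTGCATAA) 34 bases before the start. The proximal one held a GATA match on the other strand, 103 bases before it. Among 32851 promoter windows of that length, 12.4% held the TATAAA letters, 6.75% the AP-1, 17.6% the NF-kB, 9.99% the GATA, 9.56% the C/EBP and 10.6% the PU.1 letters. These matches are a description of the letters. The libraries count the 3′ end of transcripts, so they do not tell the 2 starts of Il1rl1, or its soluble and membrane forms, apart.

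**Figure D1:**
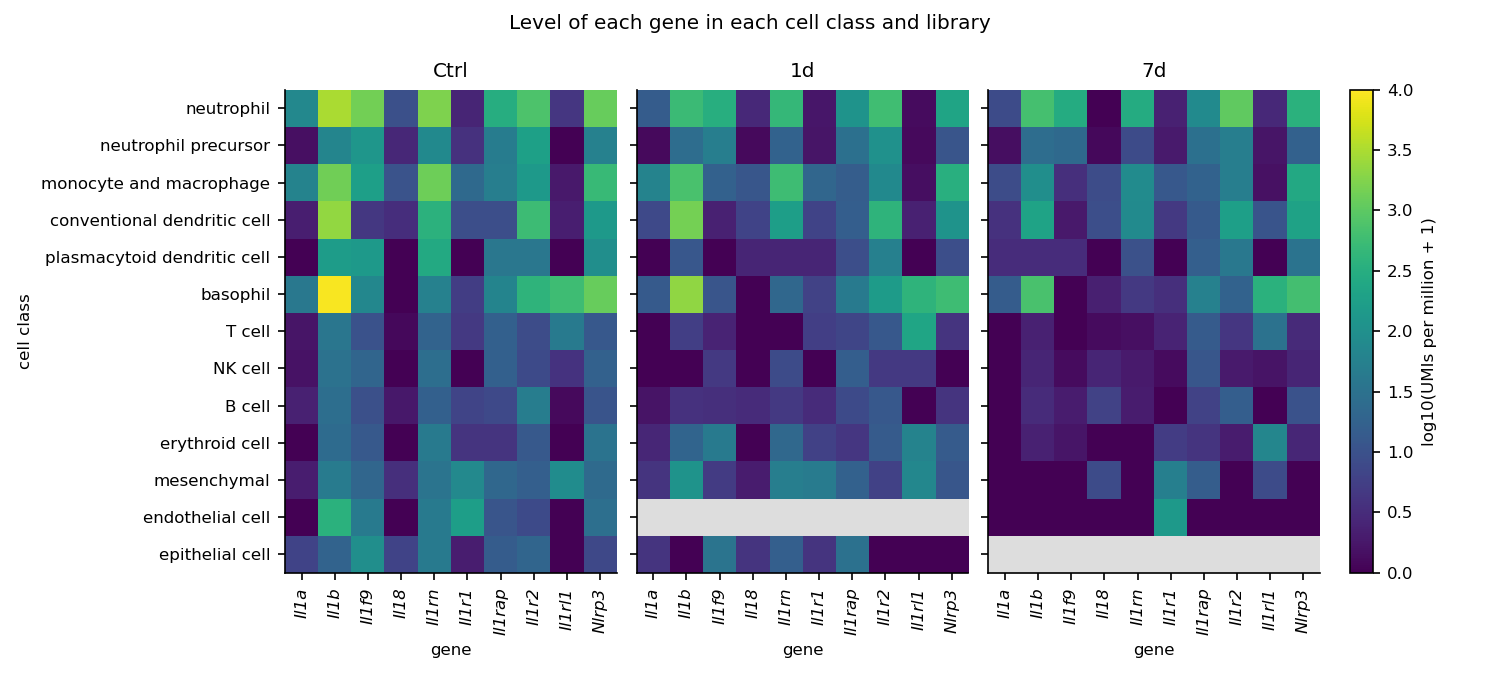
Each tile gives the level of 1 gene (column) in 1 cell class (row), as log10(CPM + 1), in the Ctrl, 1d and 7d libraries. Grey rows had fewer than 20 cells, and B cell precursors and unnamed clusters are left out. In Ctrl the Il1b column is brightest in basophils (9008 CPM) and neutrophils (3053), and both are darker in 7d (720 and 653).

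Il1b, the main inflammatory cytokine of the family, was much lower in both irradiated libraries. Over all kept cells its level was 1099 CPM in Ctrl, 214 in 1d and 60.7 in 7d. The ratio to Ctrl was 0.195 (0.1906 to 0.1997) at 1d and 0.0552 (0.0530 to 0.0575) at 7d. Neutrophils held 76.6% (76.2 to 77.0) of its UMIs in Ctrl, 42.5% in 1d and 41.0% in 7d. In neutrophils the level was 3053 CPM in Ctrl, 527 in 1d and 653 in 7d. The intervals of Ctrl and of each irradiated library lay far apart, and the ratios were 0.173 (0.167 to 0.179) and 0.214 (0.201 to 0.228). A UMI of Il1b was seen in 85.4%, 39.98% and 47.0% of neutrophils. With every cell thinned to 1000 UMIs, which left 2732, 1237 and 344 neutrophils, the shares were 76.3%, 27.5% and 32.9%. In B cells, taken here as a class that lacks the gene, the shares were 4.31%, 0.713% and 0.412% (thinned 1.95%, 0.324% and 0, with an exact Clopper-Pearson upper limit of 0.784%). Median depths were 1970, 4900 and 3822 UMIs in neutrophils and 1914, 2425 and 1836 in B cells. The median neutrophil carried 6 UMIs of Il1b in Ctrl and 0 in both other libraries, where the top 10% of cells held 64.8% (1d) and 56.5% (7d) of the UMIs against 37.5% in Ctrl.

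The neutrophils were 3 clusters, and their mix differed between libraries. Cluster 1 was led by Cxcr2, Retnlg and Fpr1, cluster 3 by Acod1, Ccrl2 and Cyp4f18, and cluster 4 by Krt83, Ceacam10, Ltf, Ly6g and Mmp8. Ltf, Ly6g and Mmp8 encode granule or surface proteins of maturing neutrophils. Although none of the 10 genes was used to cluster the cells, Il1f9 was among the 10 leading genes of cluster 1, and Il1rn, Il1a and Nlrp3 were among those of cluster 3. Cluster 4 was 10.0% of neutrophils in Ctrl, 66.3% in 1d and 57.5% in 7d. Clusters 1 and 3 together were the other cells; cluster 3 was 42.9%, 10.3% and 23.2%. Il1b was at 4384, 2359 and 1836 CPM in cluster 1, 4645, 2687 and 3832 in cluster 3, and 516, 113 and 123 in cluster 4 (Ctrl, 1d, 7d). Cluster 4 was the lowest in every library, and in each cluster Ctrl was the highest. With the 3 clusters weighted by their share of neutrophil UMIs in Ctrl, a setting added after the data were seen, the ratios for Il1b were 0.532 (1d) and 0.544 (7d). Those lie nearer to 1 than the ratios over the class, and within 2-fold. The same held at 1d for the other 5 genes that were 2-fold lower over the class and were weighted this way, whose values stand with each gene below. Neutrophil precursor markers in the neutrophil class summed to 24366 CPM in Ctrl, 77550 in 1d and 68529 in 7d, with 8 of 8 detected in each, and neutrophil markers to 190330, 286005 and 272981.

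**Figure D2:**
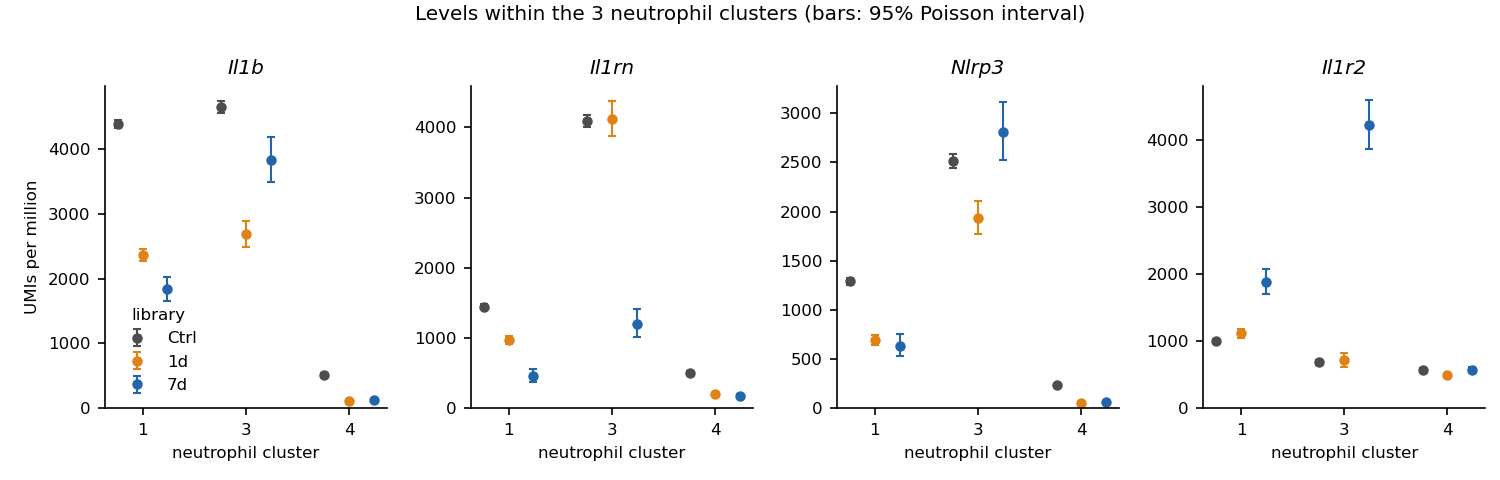
The y axis gives CPM (UMIs per 1000000) of Il1b, Il1rn, Nlrp3 and Il1r2 in neutrophil clusters 1, 3 and 4 for Ctrl, 1d and 7d, with 95% Poisson intervals. Il1b is near the floor of its panel in cluster 4 (516, 113 and 123), and Il1r2 of 7d stands at 4214 in cluster 3 against 679 in Ctrl.

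Outside neutrophils, basophils had the highest Il1b level of any named class in each library. The level was 9008 (8622 to 9408) CPM in Ctrl, 2184 (2040 to 2335) in 1d and 720 (663 to 780) in 7d. The last overlapped that of neutrophils, and the ratios to Ctrl were 0.242 (0.224 to 0.263) and 0.0799 (0.0728 to 0.0876). No single basophil held more than 14.9% of these UMIs. Basophils held 5.19% of all Il1b UMIs in Ctrl, 9.87% in 1d and 24.0% in 7d, while making up 0.674%, 1.06% and 1.90% of cells. Neutrophil markers summed to 6681, 4921 and 179 CPM in basophils, with 8, 8 and 6 of 8 detected, and their part in the result was not tested. An unnamed cluster found in Ctrl alone, cluster 20, was led by Ctsk and Acp5, genes known from osteoclasts. Its 226 cells held Il1b at 1060 CPM, and 92.9% of them had a UMI.

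The monocyte and macrophage class held Il1b at 1341, 719 and 94.7 CPM, ratios of 0.536 (0.506 to 0.568) and 0.0706 (0.0606 to 0.0818). Finer cluster 15, led by Msr1 and Gpnmb, was at 1525, 988 and 208. Finer cluster 17, led by Ms4a8a and Clec4a3, was at 391, 386 and 69.0. These 2 clusters counted 366, 200 and 29 cells and 47, 162 and 297 cells, so the higher-level cluster made up less of the class in 7d. Within finer cluster 17 the level of 1d did not differ beyond counting error (ratio 0.989, 0.790 to 1.25), while that of 7d was lower (0.176, 0.134 to 0.234). Neutrophil markers in the class summed to 16126, 3743 and 580 CPM, with 8 of 8 detected in each library. Conventional dendritic cells held 2231, 1480 and 208 CPM of Il1b (ratios 0.663 and 0.0932). Their neutrophil markers summed to 422, 474 and 162, with Ly6g at 0 in each library. The part of neutrophil RNA in the monocyte and macrophage result was not tested. Nor was that of the cluster mix in the values of this class, for Il1b or the genes below.

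**Figure D3:**
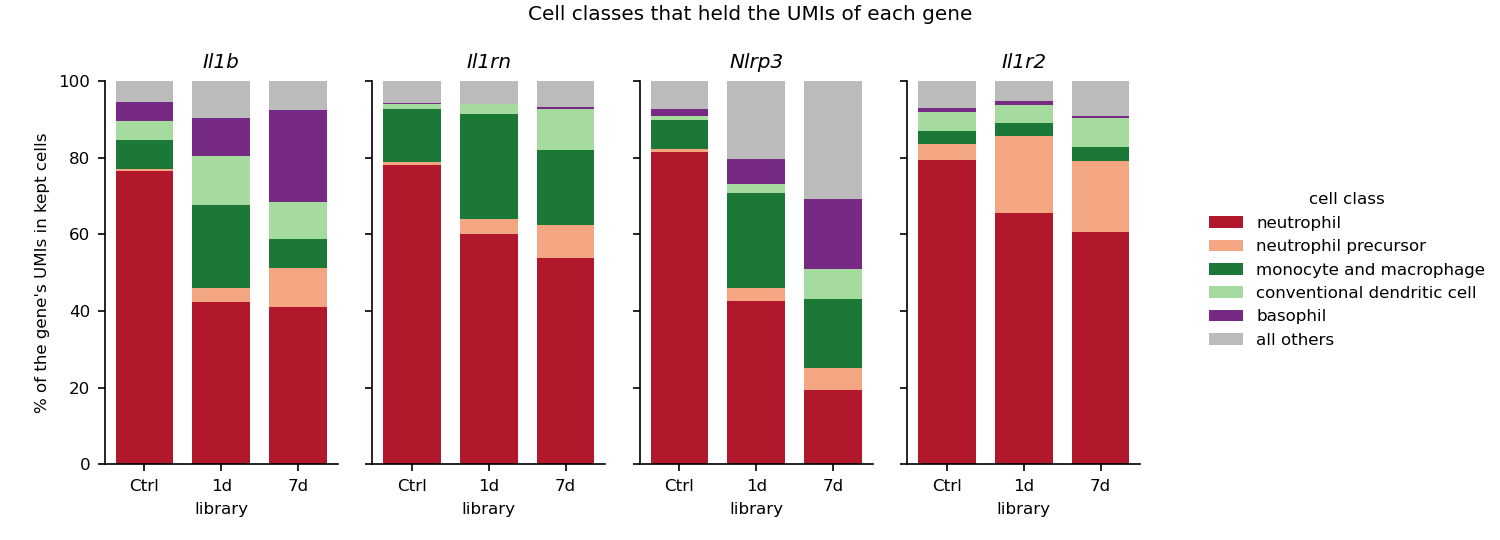
Stacked bars give the percent of each gene's UMIs held by each cell class, for Il1b, Il1rn, Nlrp3 and Il1r2 in Ctrl, 1d and 7d; each bar sums to 100. The neutrophil part of Il1b goes from 76.6% to 42.5% and 41.0%, and the basophil part from 5.19% to 9.87% and 24.0%.

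Low Il1b levels in other classes need care. Haemoglobin-dominated barcodes, which hold mostly RNA of red cells and free RNA, carried Il1b at 571 (433 to 738), 34.2 and 0 CPM of their other RNA. Free Il1b RNA was thus highest in Ctrl. Ctrl levels of Il1b in B cells (26.5), T cells (35.8), NK cells (30.8) and mesenchymal cells (45.8) stood beside it. The part of free RNA in the levels of these classes was not tested. Ratios with free RNA subtracted were run as an alternative, of which the counts of calls over all classes are given below. In mesenchymal cells of 1d, Il1b was 2.46-fold above Ctrl, but 99.1% of its 114 UMIs came from 1 cell. Without the highest cell of each library the ratio was 0.0245.

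Il1a, the second ligand of IL1R1, was a low gene with 926, 314 and 74 UMIs over all kept cells. Neutrophils held it at 71.8, 13.8 and 7.11 CPM (ratios 0.192 and 0.0990, or 0.763 and 0.276 with the clusters weighted as in Ctrl). Monocytes and macrophages were at 60.4, 60.6 and 7.51, where 1d did not differ from Ctrl beyond counting error (ratio 1.00, 0.791 to 1.27) and 7d was lower (0.124, 0.0677 to 0.212). This class held 14.5% of Il1a UMIs in Ctrl and 157 of 314 in 1d. Its finer cluster 17 was at 8.23, 5.23 and 5.75 CPM, from 2, 6 and 10 UMIs. The part of the mix of finer clusters 15 and 17 in the class ratios was not tested. In the finer cluster 15 the level of Il1a was 52.8 in Ctrl, 100.1 in 1d and 0 in 7d (29 cells, which allows 15.2 at 3 counts), a 1.90-fold ratio at 1d (1.42 to 2.55), with 22.8% of the 1d UMIs in 1 cell.

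Il1f9 was the most neutrophil-restricted of the ligands by share, with 90.4%, 75.1% and 63.4% of its UMIs in neutrophils and 1.77%, 19.7% and 31.5% in neutrophil precursors. Its level in neutrophils was 1430, 322 and 289 CPM (ratios 0.225 and 0.202, or 0.559 and 0.317 weighted as in Ctrl). In precursors it was 126, 49.8 and 22.6 (0.396 and 0.1797). Monocytes and macrophages were at 180, 16.6 and 2.51, beside 8.47, 2.43 and 1.03 in B cells. Epithelial cells, a known site of IL-36γ, were at 93.7 (75.1 to 115) in Ctrl, where 25 of 63 cells had a UMI, and at 33.2 in the 21 cells of 1d. Free RNA carried Il1f9 at 226, 22.8 and 13.9 (23, 2 and 2 UMIs).

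Il18, the other inflammasome substrate, was close to the detection limit, with 143, 93 and 63 UMIs. In neutrophils 84 UMIs were counted in Ctrl, 13 in 1d and 0 in 7d. With 3 counts in place of 0, the 7d level was 4.38-fold lower (ratio 0.228, upper limit 0.287). Il18 was not weighted by neutrophil cluster, and the part of the cluster mix in these values was not tested. Monocytes and macrophages were at 9.47, 10.8 and 7.51 CPM, and both ratios (1.14, 0.625 to 2.11, and 0.793, 0.381 to 1.61) included 1.

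Il1rn, the antagonist, was lower over all kept cells by more than Il1b at 7d: 596, 132 and 20.7 CPM, ratios of 0.221 (0.214 to 0.228) and 0.0347 (0.0324 to 0.0372). Neutrophils held 78.1%, 60.1% and 53.9% of its UMIs, and monocytes and macrophages 13.7%, 27.6% and 19.6%. In neutrophils it was at 1688, 459 and 293, with ratios of 0.272 and 0.173, or 0.821 and 0.307 weighted as in Ctrl. In monocytes and macrophages it was at 1324, 565 and 82.7. Finer cluster 15 of that class was at 1406, 878 and 137, and finer cluster 17 at 78.2, 46.2 and 50.6. The part of the mix of these clusters in the class values was not tested. The pattern of Il1rn within the neutrophil clusters was unlike that of Il1b. In cluster 3, where it was highest, 1d was level with Ctrl (4093 and 4120; ratio 1.01, 0.944 to 1.07), but 7d was at 1203 (0.294, 0.249 to 0.345). In the same cluster of 7d, Il1b had a ratio of 0.825 (0.751 to 0.904), so the 2 intervals did not overlap. Basophils, the class highest in Il1b, held Il1rn at 57.3, 20.5 and 3.65 CPM, beside 15.9, 3.65 and 1.03 in B cells.

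Nlrp3, the inflammasome sensor, went with Il1b across classes. Over 36 units of class and library, its log2 level had a Pearson r of 0.911 with that of Il1b, the highest of any gene for Il1b. The units share libraries, and the r is a description. In neutrophils Nlrp3 was at 1180, 212 and 359 CPM (ratios 0.1799 and 0.304). Weighted as in Ctrl, these ratios were 0.622 and 0.769, so neither was past 2-fold. Among Il1b-positive neutrophils, 82.1%, 59.9% and 65.9% had a UMI of Nlrp3. In neutrophil cluster 3 it was at 2514, 1932 and 2812, with a 7d ratio of 1.12 (1.00 to 1.25). In basophils it was at 1155, 564 and 636, detected in 93.1%, 75.0% and 86.3% of cells. Among Il1b-positive basophils, 94.1%, 92.6% and 93.2% also had a UMI of Nlrp3. Conventional dendritic cells were at 140, 112 and 202, so 7d was the highest (1.45, 1.15 to 1.82). Monocytes and macrophages were at 492, 330 and 257, a lesser difference than for Il1b or Il1rn. The unnamed cluster 10, led by Pf4, Cd34, Itga2b and Meis1, held 816 of the 2856 Nlrp3 UMIs of 7d, at 132, 97.9 and 94.6 CPM.

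Il1r2, the decoy receptor, was the exception among the genes of neutrophils. Its level there was 773, 583 and 1043 CPM, with ratios of 0.755 (0.727 to 0.784) at 1d and 1.35 (1.28 to 1.42) at 7d, both within 2-fold. A UMI was seen in 69.5%, 80.2% and 89.0% of neutrophils (thinned 48.6%, 43.7% and 61.05%). In cluster 3 it stood at 679, 717 and 4214, a 6.21-fold ratio at 7d (5.61 to 6.86). That rested on 84 cells of 7d, of which 95.2% had a UMI and none held more than 4.16% of the UMIs. At the finer resolution, 2 clusters shared its leading gene 4933432I03Rik: finer cluster 8, without a name, and finer cluster 9. They were at 4936 (21 cells) and 3996 (64 cells) in 7d against 612 and 796 in Ctrl. Cluster 1 was at 993, 1115 and 1880 (1.89-fold at 7d, 1.70 to 2.10), and cluster 4 at 572, 486 and 572. Weighted as in Ctrl, the class had ratios of 1.04 and 2.49, so with the mix held as in Ctrl the 7d level was past 2-fold.

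In the other myeloid classes Il1r2 was lower in both irradiated libraries. Conventional dendritic cells were at 547, 398 and 177 CPM (ratios 0.728 and 0.323), basophils at 392, 154 and 17.0 (0.392 and 0.0434), and monocytes and macrophages at 143, 77.9 and 49.6. Neutrophil markers in basophils summed to 6681, 4921 and 179 CPM, and their part in the basophil values was not tested. Neutrophil precursors were at 189, 106 and 49.5, and by number they held 4.33%, 20.2% and 18.4% of Il1r2 UMIs. Free RNA carried Il1r2 at 138, 45.6 and 27.9 (14, 4 and 4 UMIs), and B cells at 48.2, 11.9 and 14.4.

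**Figure D4:**
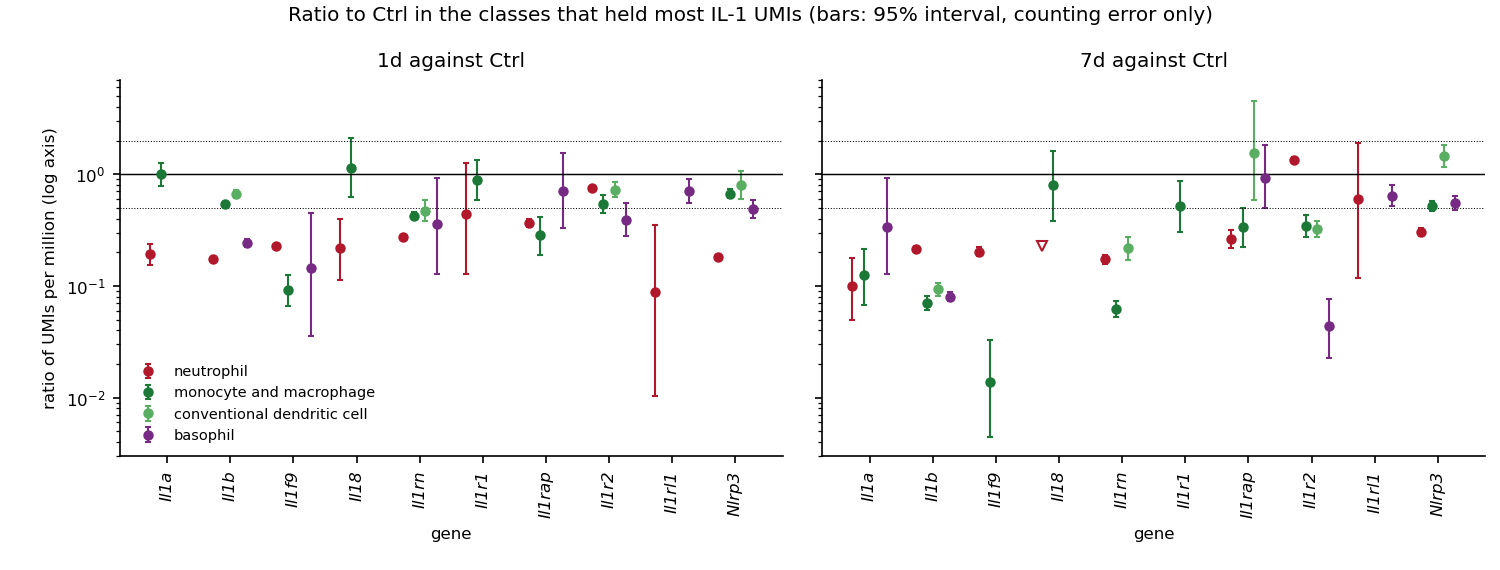
Points give the ratio of CPM to Ctrl (log axis) for each gene in neutrophils, monocytes and macrophages, conventional dendritic cells and basophils, with 95% intervals of counting error. Dotted lines mark 2-fold, and the open triangle is a ratio with 3 counts in place of 0 UMIs in 7d. Il1r2 is the only neutrophil point above 1 at 7d (1.35), and Il1b of the other 3 classes lies below 0.1 at 7d.

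Counted over genes, neutrophils had 9 of 10 members at least 2-fold lower in 1d, where 13.4% of all 9036 genes were, and 7 of 9 in 7d, where 14.1% of 8416 genes were. The median log2 ratio of the members was −2.17 and −2.13, against 0.04 and 0.03 over all genes. Il1r1 and Il1rl1 entered that count in 1d with 16 and 32 UMIs in Ctrl. With the clusters weighted as in Ctrl, done for 7 members, none was 2-fold lower at 1d. At 7d 4 of the 7 were (Il1a, Il1rn, Il1f9 and Il1rap), and Il1r2 was 2-fold higher. Monocytes and macrophages had 3 of 9 (background 3.99%) and 6 of 9 (8.72%) lower. Conventional dendritic cells had 1 of 4 (3.51%) and 3 of 5 (10.7%), and basophils 5 of 7 (7.33%) and 3 of 6 (7.4%). Neutrophil precursors had 4 of 6 (5.12%) and 5 of 6 (5.08%). The precursors were cluster 11 (32, 213 and 353 cells) and cluster 12 (44, 380 and 173). The part of the cluster mix in the values and counts of precursors, and in those of monocytes and macrophages, was not tested. None of the members was at least 2-fold higher in these 5 classes, where the shares of all genes so called were 7.08% and 12% in neutrophils, 6.53% and 8.87% in the monocyte and macrophage class, 5.38% and 9.03% in conventional dendritic cells, 19.3% and 27.7% in basophils, and 7.31% and 19.7% in neutrophil precursors (1d and 7d).

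Over all kept cells 8 of 10 and 9 of 10 members were lower, with backgrounds of 18% and 21.2% and medians of −1.65 and −2.50, and none was higher (7.98% and 9.39%). In these totals fewer cells of a type and less RNA per cell cannot be told apart. In lymphoid cells Il1b, Il1f9 and Il1rn were among the lower calls of every comparison, and the others were of Nlrp3, Il1r1, Il1r2 or Il1rap. Il1r2 in B cells was at 48.2, 11.9 and 14.4 CPM. The B cell clusters also differed between libraries. Cluster 0, with Ighd and Fcer2a among its leading genes, had 1573, 276 and 350 cells. Cluster 9, with Iglc1 and Rag1 among them, had 42, 922 and 34. The part of this mix in the B cell values and counts was not tested. With 5% of each class's UMIs taken as free RNA and subtracted, fewer lower calls were left over all classes, as given below. Those counts were not split by class, and the part of free RNA in the lymphoid calls is not given. B cells had 6 of 7 (6.17%) and 4 of 7 (9.86%) lower, NK cells 3 of 5 (9.25%) and 4 of 5 (6.85%), and T cells 5 of 7 (5.87%) and 6 of 8 (6.65%). The higher calls there were 0 of 7 in B cells (13.8% and 4.23%), 0 of 5 in NK cells (3.75% and 4.81%), and 1 of 7 and 0 of 8 in T cells (3.63% and 4.14%). Mesenchymal cells had 3 of 8 (5.29%) and 6 of 8 (11.7%) lower, and 1 (5.34%) and 0 (17.6%) higher. Erythroid cells had 2 of 3 (37%) and 1 of 1 (25%) higher and none lower (16.4% and 30.5%).

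Il1r1, the signalling receptor, was highest in cells other than the main sources of its ligands. Endothelial cells had the highest Il1r1 level of any named class, at 173 (128 to 228), 89.95 (33.0 to 196) and 142 (84.5 to 225) CPM in 61, 12 and 26 cells, and these intervals overlapped. Mesenchymal cells were at 76.7, 45.4 and 53.0 (ratios 0.592, 0.424 to 0.811, and 0.691, 0.458 to 1.01). Within them, fibroblasts (finer cluster 32) were at 136, 34.8 and 66.1, and periodontal ligament and tendon cells (finer cluster 26) at 77.1, 53.3 and 46.8. An unnamed cluster, 16, led by Dio3, Nes, Tac1 and Bmp2, was at 127, 107 and 18.4, and held 337 of the 818 Il1r1 UMIs of Ctrl. It had 269, 121 and 24 cells. Monocytes and macrophages were lower, at 22.1, 19.7 and 11.5, beside 5.56, 2.13 and 0 in B cells. Neutrophils had 16, 5 and 2 UMIs in all. In Ctrl the order was endothelial cells and cluster 16, whose intervals overlapped (114 to 141 in cluster 16), then mesenchymal cells (68.0 to 86.1), then monocytes and macrophages (16.4 to 29.2). In 1d cluster 16 (90.1 to 126) was above mesenchymal cells (33.2 to 60.6), and endothelial cells overlapped both. In 7d endothelial cells were above mesenchymal cells (35.8 to 75.6), which overlapped cluster 16 (5.00 to 47.0).

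Il1rap, the accessory chain shared by the IL-1, IL-33 and IL-36 receptors, was highest in neutrophils of Ctrl. Its level there was 308, 113 and 81.4 CPM (ratios 0.367 and 0.264, or 0.673 and 0.477 weighted as in Ctrl). Neutrophil precursors were at 47.7, 29.3 and 28.9 and held 2.86%, 24.9% and 34.8% of its UMIs. Basophils were at 61.7, 43.6 and 57.2, and the ratios (0.706, 0.328 to 1.55, and 0.926, 0.501 to 1.82) included 1. Mesenchymal cells were at 20.9, 16.8 and 14.1, with both intervals including 1.

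Il1rl1, the IL-33 receptor, was held by basophils, lymphoid, stromal and erythroid cells, and its differences did not go 1 way. Basophils were the highest class, at 568 (475 to 676), 402 and 364 CPM (ratios 0.708, 0.557 to 0.9005, and 0.639, 0.518 to 0.792). A UMI was seen in 75.9%, 84.6% and 71.8% of them. Basophils held 14.1%, 30.8% and 39.0% of Il1rl1 UMIs.

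T cells were at 41.4, 221 and 30.7 CPM, a 5.35-fold ratio at 1d (4.29 to 6.68), where 3.63% of genes tested in T cells were at least 2-fold higher. Il1rl1 was the only member higher there, and the result rested on few cells: 25 of 166 T cells of 1d had a UMI. Of the 150 UMIs, 111 came from the 15 cells of the finer cluster 40, led by Il5, Il17a, Calca and Cd163l1. Il5 and Calca are markers of type 2 innate lymphoid cells, and Il17a and Cd163l1 of gamma delta T cells. That cluster was at 272 (179 to 395), 1887 (1553 to 2273) and 830 (682 to 1001) CPM in 26, 15 and 30 cells. Finer cluster 22, of regulatory T cells, led by Foxp3 and Tnfrsf4, was at 220, 260 and 220 (ratios 1.18, 0.773 to 1.76, and 0.998, 0.756 to 1.31), so it did not differ beyond counting error.

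Erythroid cells held no Il1rl1 UMI in Ctrl (88 cells, which allows 8.97 CPM at 3 counts), 36 in 1d and 202 in 7d. With 3 counts in place of 0 in Ctrl, the levels of 59.5 and 68.4 were 6.63-fold and 7.63-fold higher (lower limits 5.12 and 6.15). In this class 37% and 25% of genes were at least 2-fold higher. The cells differed: of the erythroid cells of Ctrl, 80 of 88 were in cluster 22 of the main resolution, led by haemoglobin genes. Finer cluster 25, led by Hemgn, Rhd and Klf1, was not found in Ctrl and had 56 and 237 cells in 1d and 7d, where Il1rl1 was at 88.6 and 111. Level and cell makeup cannot be told apart here.

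Stromal Il1rl1 went the other way. Mesenchymal cells were at 86.4, 71.1 and 7.07 CPM, ratios of 0.822 (0.628 to 1.06) and 0.0818 (0.0221 to 0.211), where 11.7% of genes were at least 2-fold lower at 7d. Periodontal ligament and tendon cells were at 145, 84.7 and 7.80, and fibroblasts at 93.3, 69.5 and 5.51, where all 10 UMIs of 1d were in 1 of 22 cells. Cluster 16 was at 74.7, 44.4 and 0. The UMIs of 7d were 4 in 2 of 63 cells. Free RNA carried Il1rl1 at 49.2, 0 and 6.97, from 5, 0 and 1 UMIs, and the intervals overlapped. The ligand of this receptor, Il33, had 90 UMIs in mesenchymal cells of Ctrl (24.4 CPM) and 4 in those of 1d (3.95 CPM). Its level was lower by the ratio 0.162 (0.0432 to 0.429). In Ctrl the fibroblasts of finer cluster 32 held 85 Il33 UMIs, at 104 CPM. That cluster had 154 cells in Ctrl and 22 in 1d, and the part of the cell makeup in the ratio was not tested.

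**Figure D5:**
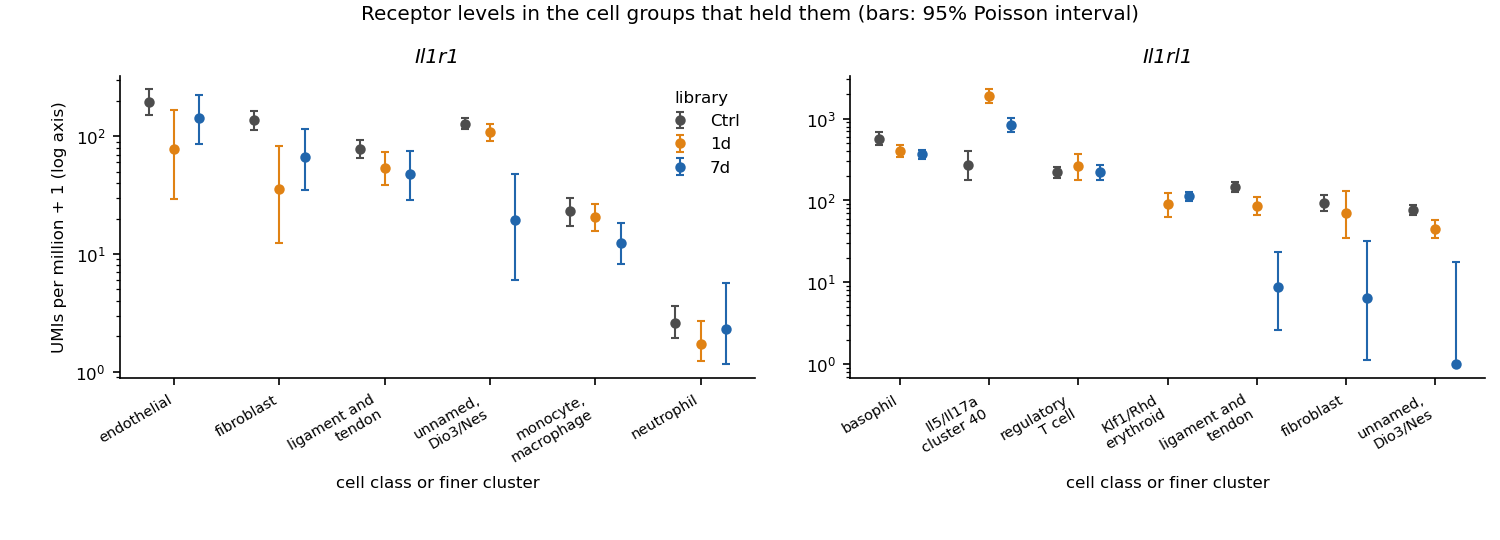
The y axes give CPM + 1 (log axis) of Il1r1 and Il1rl1 in the cell classes or finer clusters that held them, for Ctrl, 1d and 7d, with 95% Poisson intervals. Il1rl1 of finer cluster 40 is highest in 1d (1887), erythroid finer cluster 25 has no Ctrl point, and the 3 stromal groups of 7d lie at 7.80 or below.

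Genes of the same pathway were followed as lists, which were chosen with earlier results of these data known. Of the inflammasome and release genes, 6 of 10 measured in neutrophils were at least 2-fold lower at 1d and 6 of 10 at 7d. None was higher, beside 13.4% and 14.1% of all genes lower. These genes were not weighted by neutrophil cluster, and the part of the cluster mix in the counts was not tested. The furthest were the DNA sensor Aim2 (ratio 0.213), pyrin Mefv (0.248), Nlrc4 (0.301) and the membrane rupture gene Ninj1 (0.337) at 1d. At 7d they were Mefv (0.0817), Nlrc4 (0.123), the caspase Casp4 (0.184) and Aim2 (0.319). In monocytes and macrophages 0 of 10 passed at 1d (3.99% of all genes lower). At 7d Casp4 (0.462) and Nlrc4 (0.489) were lower, and the adaptor Pycard (2.03) was higher (8.72% and 8.87% of all genes lower and higher). Txnip, which binds NLRP3, was at least 2-fold higher at 7d in B cells (6.78), NK cells (4.71), T cells (4.59) and basophils (10.2). It was also so in neutrophil precursors (4.27), mesenchymal cells (3.75) and conventional dendritic cells (3.13). In the same order, the shares of all genes so called were 4.23%, 4.81%, 4.14%, 27.7%, 19.7%, 17.6% and 9.03%. In neutrophils Txnip was at 299 CPM in Ctrl, 147 in 1d and 427 in 7d, so there 1d was lower than Ctrl.

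Among NF-kB targets and feedback genes, 11 of 16 were lower in neutrophils of 1d and 10 of 16 in those of 7d, beside 13.4% and 14.1% of all genes. The lists of this paragraph were not weighted by cluster either, and the part of the cluster mix in their neutrophil values was not tested. The chemokine Cxcl2 was at ratios of 0.244 and 0.254, the adhesion gene Icam1 at 0.147 and 0.251, and Sod2 at 0.139 in 7d. Monocytes and macrophages had 2 and 7 of 16 lower (3.99% and 8.72% of all genes), with Cxcl1 at 0.256 and 0.166. Conventional dendritic cells of 1d had 3 of 15 higher (5.38% of all genes), Ccl4 (5.95), Ccl3 (3.01) and the prostaglandin synthase Ptgs2 (2.09), and 1 lower (3.51%), Cxcl2 (0.335). In mesenchymal cells of 7d 11 of 16 were lower (11.7% of all genes), with Cxcl2 at 0.0364 and Ptgs2 at 0.138. Neutrophil markers in mesenchymal cells went from 2645 to 138 CPM between Ctrl and 7d, with Ly6g at 0 in both, and their part was not tested. Of the signalling genes from Myd88 to the IKK complex, 1 and 2 of 13 were lower in neutrophils, near the 13.4% and 14.1% of all genes: Ikbkg (0.485) at 1d and Irak3 (0.406) and Map3k7 (0.454) at 7d. Immediate early genes, which digestion of tissue can raise, had 2 higher (7.08% of all genes) and 4 lower (13.4%) of 12 in neutrophils of 1d, among them Hspa1b (4.04) and Atf3 (0.223), and 1 higher, Jund (2.23), in 7d (12% of all genes).

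Of the other family ligands and receptors, both chains of the IL-18 receptor were found in lymphoid cells and basophils. Il18r1 was at 153, 250.5 and 145 CPM in NK cells, 97.3, 102 and 75.6 in T cells and 101, 131 and 66.9 in basophils. Il18rap was at 198, 218 and 192 in NK cells and 472, 361 and 276 in basophils. In neutrophils Il18rap was at 204 in Ctrl and at 100.1 in 7d (0.491), and neither this gene nor the next was weighted by cluster. The IL-36α gene Il1f6 was at ratios of 0.431 and 0.287 in neutrophils. Of its 231 UMIs in Ctrl, 123 were in cluster 16 (finer cluster 21), which was at 46.4 CPM in Ctrl and 16.1 in 1d. Il1rl2, the IL-36 receptor, was 3.64-fold higher in monocytes and macrophages of 1d (34 against 8 UMIs, 1.65 to 9.09).

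The genes whose levels went most like the members over the 36 units of class and library are given as a description, since units of 1 library share its depth and free RNA. For Il1b they were Nlrp3 (r 0.911), Ccl6 (0.907) and Clec4d (0.9002), and for Il1rn Cd14 (0.887), Clec4d (0.878) and Slc11a1 (0.875). Il1f9 went with Retnlg (0.939), Il1r2 with Adam8 (0.895), Il1a with Klra2 (0.843) and Il1rap with Slc27a4 (0.864). Il1r1 went with ceruloplasmin Cp (0.874), Smad6 (0.824) and Nupr1 (0.824), and Il1rl1, less closely, with Rab4a (0.795), Calca (0.723) and Il4 (0.712).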

How the data were processed

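The deposited values are UMI counts per gene and cell barcode, made by the authors with Cell Ranger (6.1.1 per the file headers; the submitters' processing notes also name CASAVA 1.8, Seurat and build mm10). Barcodes with at least 500 UMIs, 250 genes and at most 15% mitochondrial UMIs were kept, and doublets were called per library (275, 210 and 338 removed) with Scrublet in scanpy 1.11.5. Counts were scaled to 10000 per cell, and 2000 variable genes without the 10 members, 30 components, 15 neighbours and Leiden resolution 1 gave 26 clusters, of which 22 were named from fixed markers into 14 classes. A finer resolution of 2 gave 44 clusters. UMIs were summed per class and library. Intervals are exact (Poisson for levels, Clopper-Pearson for shares, conditional binomial for ratios). A gene was called at a ratio of 2 or 0.5 with at least 20 UMIs over the 2 libraries, in classes of at least 30 cells in both. A level of 0 was bounded at 3 counts. Free RNA was read from barcodes that failed the cell filter and had over 50% haemoglobin UMIs. The script was tested on simulated data. Members, gene lists and cell type markers were chosen with earlier results of these data known. Of each list up to 4 genes, furthest from a ratio of 1, were named, and of the likeness measure (genes with at least 500 UMIs) 3 a member. Alternatives changed the cell filter, doublets, resolution, depth, scaling (TMM, edgeR 4.0.16), free RNA, fold and UMI minimum.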

Additional observations from a re-analysis of the deposited data

Results flagged for a closer look

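In each case below a gene was at least 2-fold higher in 1 class and at least 2-fold lower in others of the same library, and the difference between classes was not tested. Il1b of 1d was 2.46-fold above Ctrl in mesenchymal cells and lower in 6 classes, with 99.1% of the mesenchymal UMIs in 1 cell. Il1f9 of 1d was 3.46-fold above Ctrl in erythroid cells (25 against 4 UMIs, 56% of them in 1 cell) and lower in 8 classes. Il1rl1 of 1d was 5.35-fold above Ctrl in T cells and lower in neutrophils (2 against 32 UMIs). In erythroid cells of 1d it was 6.63-fold above Ctrl, with 3 counts in place of 0 in Ctrl. Il1rl1 of 7d was 7.63-fold above Ctrl in erythroid cells, counted the same way, and lower in mesenchymal cells (4 against 319 UMIs).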

How the results depend on the processing

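No paired analysis was possible because each group was 1 library. Results past 2-fold, by gene and class or by gene over all kept cells, numbered 103. Of these, 80 kept their side of 2-fold wherever an alternative run on all classes could measure them. Il1b in neutrophils, given below, was not among them, and totals over all kept cells were not compared at other resolutions. A result left with too few UMIs under an alternative was passed over there. The count of 80 therefore includes results not called under every alternative, and thinning left fewer calls, as given below. Weighting the neutrophil clusters as in Ctrl, run on 7 genes there and not in that count, brought 6 of them within 2-fold at 1d and 2 at 7d. The log2 ratio of Il1b in neutrophils, −2.53 at 1d and −2.23 at 7d, kept its direction. At 1d it was −2.60 at resolution 2, −2.21 with cells thinned, −2.67 without cells above the 99th percentile and −0.89 in the largest cluster (1). At 7d it was −2.32 with doublets kept and at resolution 2, −1.70 thinned, −2.40 with TMM, −2.33 without cells above the 99th percentile and −1.26 in cluster 1. Settings chosen after seeing the data gave −0.79 and −0.28 in cluster 3, −2.19 and −2.07 in cluster 4, and −0.91 and −0.88 with clusters weighted as in Ctrl (1d and 7d).

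Within classes 39 pairs of member and class were called lower at 1d and 44 at 7d, with the shares of all genes given by class above. Thinning gave 24 and 27, subtracting free RNA 24 and 28, and a minimum of 100 UMIs 20 and 28. The higher calls were 4 at 1d and 1 at 7d. At 1d they were 2 at resolution 0.5, 7 at resolution 2, 1 thinned, 8 with at least 5 UMIs, 2 with at least 100, and 2 with the highest cell left out (chosen after seeing the data). At 7d they were 0 at resolution 0.5, 4 at resolution 2, 5 with at least 5 UMIs and 2 at a fold of 1.5.

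The neutrophil share of Il1b UMIs in Ctrl, 76.6%, was 75.5% with the stricter filter, 72.0% with doublets kept, 77.6% at resolution 0.5, 68.2% at resolution 2, 84.6% thinned and 77.9% with free RNA subtracted. In 1d (42.5%) it was 41.0%, 39.1% and 63.4%, and in 7d (41.0%) 38.1%, 36.5% and 68.6%, with doublets kept, at resolution 2 and thinned. In mesenchymal cells of 1d the log2 ratio of Il1b turned to −5.07 (stricter filter), −1.08 (thinned) and −5.35 (highest cell left out), and that of Nlrp3 to 0.36 with free RNA subtracted. Where no cause is given above, the cause was not tested.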
